A study of Homo sapiens with 3 samples.

Results

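The transcripts described here come from 8 genes that encode chaperones and folding enzymes of the endoplasmic reticulum (ER) lumen: HSPA5, HYOU1, HSP90B1, CALR, PDIA3, PDIA4, PDIA6 and P4HB. They were chosen by gene name, and a region counted as a member when it overlapped the gene's interval in the human build hg19 by at least 1 nt on the same strand. The 8 intervals span 141795 nt in all. They held 92 of the 103134 clusters of replicate 1, 61 of the 66222 clusters of replicate 2, and 14 of the 2253 reproducible peaks (0.621%). On the opposite strand of the same intervals there were 0 clusters in replicate 1, 0 in replicate 2 and 0 reproducible peaks. The deposited lists name no genes, so the gene names rest on the intervals alone.

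TIA1 binds U-rich stretches of RNA and is known for roles in splicing, translation control and stress granules. Its RNA contacts were mapped by enhanced crosslinking and immunoprecipitation (eCLIP) in HEK293T, a human embryonic kidney cell line carrying the SV40 large T antigen. The 2 immunoprecipitated samples, replicates 1 and 2, were made with an anti-TIA1 antibody, and the 1 input was made with none. All of them are labelled with 600 mJ of ultraviolet light, with no stress, drug or genetic change named. The labels call the replicates technical in one place and biological in another, and 1 protocol text gives the antibody's catalogue number to another protein, Msi1. A spread between the replicates may therefore be technical.

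Proteins that enter the secretory pathway are folded in the ER lumen. HSP70-type and HSP90-type chaperones hold unfolded chains there, calreticulin binds glycoproteins through their sugars, and protein disulfide isomerases form and rearrange disulfide bonds. These genes are known for their joint induction by the unfolded protein response, which senses misfolded protein in the ER, and their messenger RNAs are translated at the ER membrane.

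Because TIA1 is known for binding U-rich RNA, the T-richest 25 bases within the last 1300 nt of the transcript are shown for the gene with the highest fold (PDIA4), the gene with the most reads (CALR), a gene with 2 separate peaks (HYOU1) and the gene with no peak (HSPA5). The sequences are from GENCODE release 29, 5′ to 3′, with T for U, and capitals mark runs of at least 5 T.
PDIA4: TTTTTTTTTTTTTTTaaTTTTTTat
CALR: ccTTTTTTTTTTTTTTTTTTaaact
HYOU1: ttttgtcttttccTTTTTTTTTTTT
HSPA5: ttccagggaTTTTTTTTTTTTTTTT
They lay 603, 377, 177 and 1231 nt from the 3′ end of the PDIA4, CALR, HYOU1 and HSPA5 transcript. In that last stretch of 1300 nt, the longest run of T was 18 in CALR, 17 in HSPA5, 16 in HYOU1, 15 in PDIA4, 8 in HSP90B1, 8 in PDIA6, 6 in PDIA3 and 5 in P4HB. At least 1 run of TTTTT was therefore present in all 8 transcripts, as it was in 81.9% of the 16520 protein-coding genes with a transcript of that length. A run of at least 15 T was found in 4.38% of those genes. The genes shown above are those with the longest runs of the 8. PDIA6, which also had 2 separate peaks, is not shown. The 25 bases shown end inside the longest run of HYOU1 and of HSPA5, so fewer T are printed there than the run has. HSPA5 had the second-longest run and no reproducible peak, while P4HB had the shortest run and 1 peak. However, no cluster of HSPA5 in either replicate lay within 1300 nt of the 3′ end of its gene interval. Whether run length goes with TIA1 signal was not tested. GENCODE 29 describes another genome build than the files, so these sequences were not placed on hg19, and which peak covers which run was not analysed here. For the same reason exons, introns and UTRs are not assigned to the peaks.

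The first question was how much of each transcript stood above the input. Fold here is the authors' ratio of immunoprecipitated to input reads, scaled to the library totals and given as log2, and a cluster was called enriched where both its log2 fold and its −log10 p were 3 or more. The library totals recovered from the deposited values were 2683407 reads in replicate 1, 1997817 in replicate 2 and 2851338 in the input. Enriched were 13 of 92 clusters in replicate 1 (14.1%) and 13 of 61 in replicate 2 (21.3%). Over all clusters of the same lists the shares were 3.09% and 5.32%. Read number goes with that gap. Among clusters with enough reads to pass, at least 13 in replicate 1 and 10 in replicate 2, 13 of 29 clusters of these genes (44.8%) and 13 of 26 (50.0%) were enriched, against 43.3% and 52.3% of all such clusters. At that depth the share in the ER chaperone genes was near the background.

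Reproducible peaks fell in 7 of the 8 genes. PDIA4 had 4, CALR 3, HYOU1 2, PDIA6 2, HSP90B1 1, PDIA3 1, P4HB 1 and HSPA5 0. Some of them touch: 3 of the PDIA4 peaks abut one another, as do 2 of the CALR peaks, so the 14 peaks form 11 separate stretches. The median log2 fold of the 14 peaks was 4.32, beside 4.15 for all 2253. Their median input number was 3 reads, against 1 for all peaks, and 3 of the 14 rested on an input number of 1, which may stand for 0 or 1 and which 51.3% of all peaks have. The median SD between replicates (n = 2) was 0.09 on the log2 scale, against 0.21 over all peaks, both over an input that the replicates share.

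**Figure D1:**
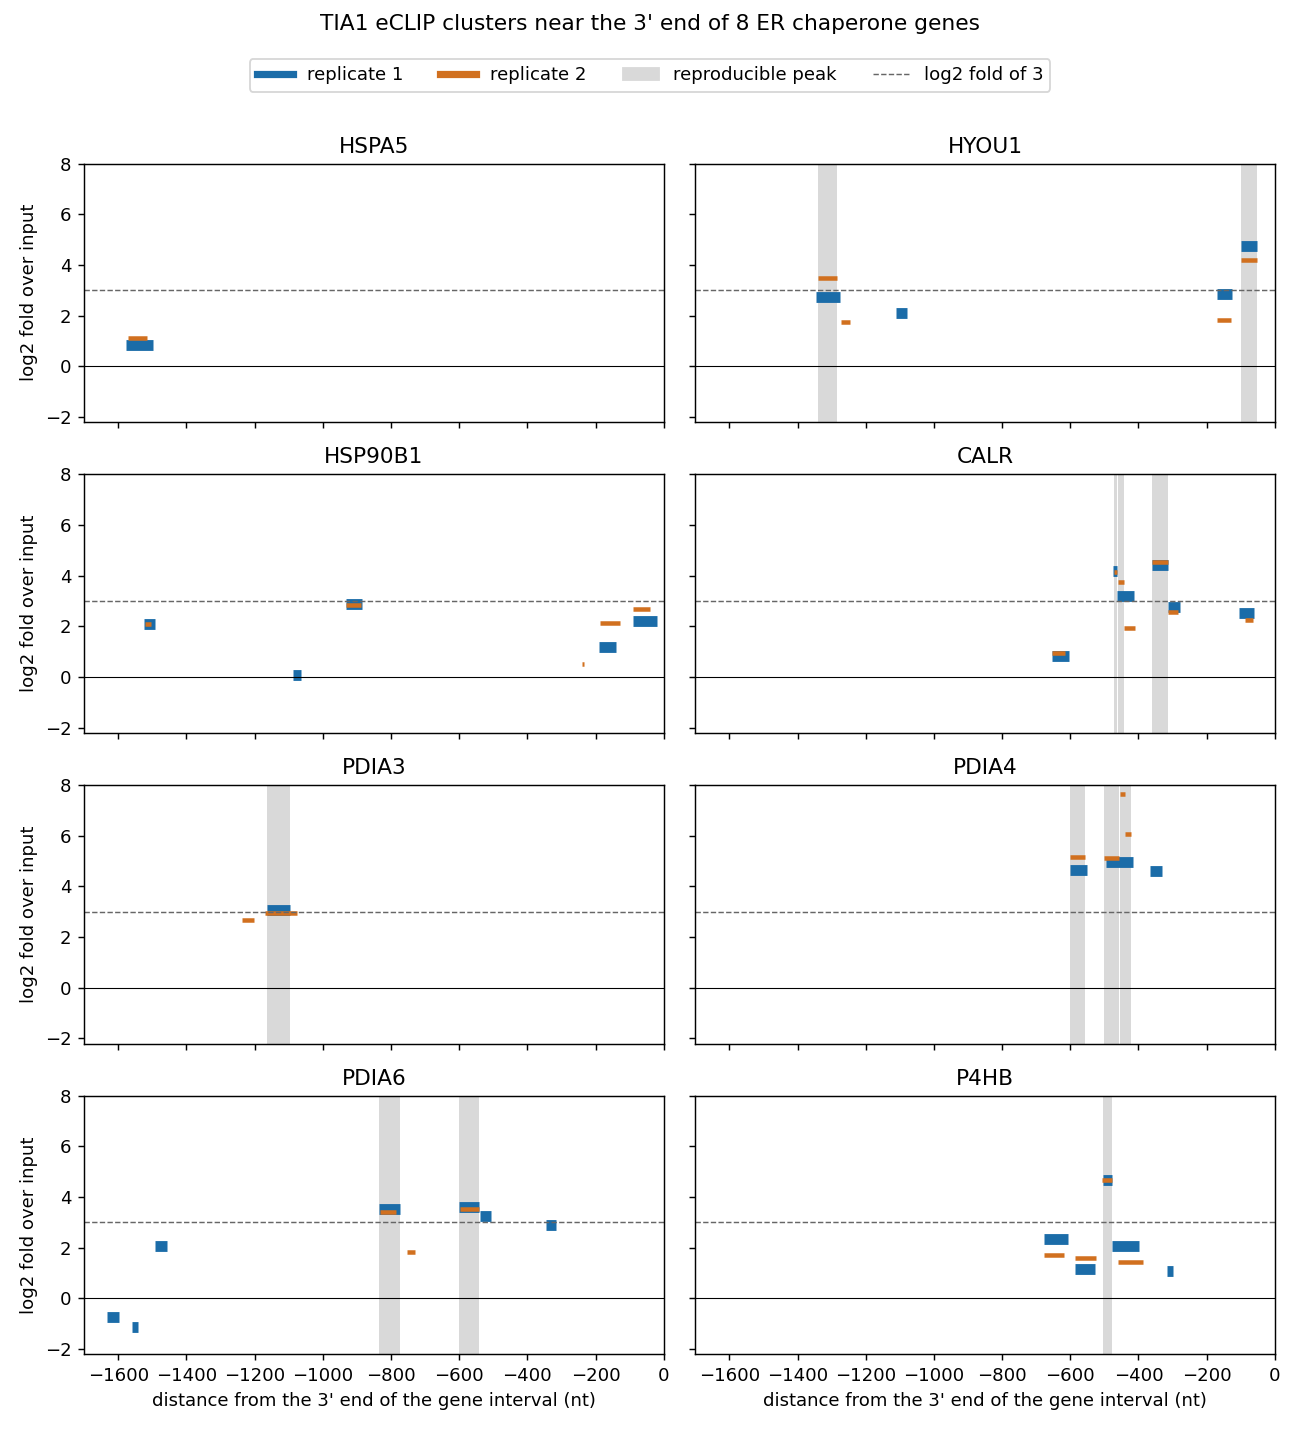
Log2 fold over input (y axis) of clusters near the 3′ end of each gene interval (x axis, nt from that end), with thick blue bars for replicate 1, thin orange bars for replicate 2, grey bands for reproducible peaks and a dashed line at a log2 fold of 3. PDIA4 has the highest bars, up to 7.63 in replicate 2, and HSPA5 has only a pair of overlapping clusters at 0.82 and 1.10. The HSP90B1 peak lies outside the plotted stretch.

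HSPA5 (chromosome 9 from 127997127 to 128003666, minus strand) encodes BiP, the HSP70 chaperone of the ER and the sensor partner of the unfolded protein response. It had 5 clusters in replicate 1 and 4 in replicate 2, none of them enriched. Its largest cluster held 60 reads in replicate 1, from 127998626 to 127998704, and 54 reads in replicate 2, from 127998642 to 127998698. The input number was 36 at both bounds. The log2 folds of 0.82 (exact 95% interval 0.20 to 1.46) and 1.10 (0.46 to 1.75) were above 0 and well below 3. These intervals, and those given below, cover counting error only. The −log10 p of this cluster was 2.09 in replicate 1 and 3.36 in replicate 2. At a log2 fold limit of 1 it would thus count as enriched in replicate 2 and not in replicate 1. The cluster of HSPA5 with the highest fold lay from 128002877 to 128002928 in replicate 2, at a log2 fold of 3.32 on 7 reads over 1, with a −log10 p of 1.99. Replicate 1 had 11 reads over 3 at an overlapping cluster there, a log2 fold of 1.96. The best-covered site of HSPA5 thus had reads in all 3 libraries and a fold little above the input.

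HYOU1 (chromosome 11 from 118914900 to 118927998, minus strand) encodes an HSP110-type chaperone that acts as exchange factor for BiP. It had 14 clusters in replicate 1 and 9 in replicate 2. The peak from 118914951 to 118915000, only 51 nt from the 3′ end of the interval, held 25 reads in replicate 1, 13 in replicate 2 and 1 in the input. The log2 folds were 4.73 and 4.21, a mean of 4.47 ± 0.37 (SD, n = 2). The second peak, from 118916183 to 118916241 and 1283 nt from the 3′ end, held 44, 47 and 6 reads. There the order of the replicates was the other way round, with log2 folds of 2.96 and 3.48 (mean 3.22 ± 0.37, SD, n = 2), so replicate 1 was just below 3. The bounds are those of replicate 2. The cluster that replicate 1 itself listed there, with 44 reads over 7, had a log2 fold of 2.74 and was not enriched. Between these peaks, next to the first, clusters with 27 reads over 4 in replicate 1 and 10 over 4 in replicate 2 reached only 2.84 and 1.84.

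HSP90B1 (chromosome 12 from 104324189 to 104341703, plus strand) encodes GRP94, the HSP90 chaperone of the ER. It was the only gene of the 8 whose reproducible peak lay far from the 3′ end of the gene interval. The peak from 104337367 to 104337440 was 4263 nt from it, introns included. The spliced transcript is 2858 nt long, and the distance along it was not analysed here. This peak is described next. The peak held 33 reads in replicate 1, 23 in replicate 2 and 3 in the input, with log2 folds of 3.55 and 3.45 (mean 3.50 ± 0.07, SD, n = 2). Near the 3′ end HSP90B1 had reads but lower folds. The cluster ending 20 nt from the end in replicate 1 had 22 reads over 5 (log2 fold 2.23), and the overlapping one of replicate 2 had 18 over 4 (2.68). A neighbouring site had 26 reads over 12 in replicate 1 (1.20) and 37 over 12 in replicate 2 (2.14). Of its 14 and 16 clusters, 1 in each replicate was enriched.

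CALR (chromosome 19 from 13049414 to 13055304, plus strand) encodes calreticulin, the soluble lectin chaperone. It had 7 clusters in each replicate, of which 3 in each were enriched, and all 7 in each replicate had enough reads to pass. The peak from 13054943 to 13054991, 313 nt from the 3′ end, had identical bounds in the 2 replicates. It held 360 reads in replicate 1, 290 in replicate 2 and 18 in the input, the most reads of any peak in the 8 genes. Its log2 fold was 4.41 in replicate 1 (exact 95% interval 3.73 to 5.18) and 4.52 in replicate 2 (3.84 to 5.30), a mean of 4.47 ± 0.08 (SD, n = 2). Further upstream lay a pair of abutting peaks. The one from 13054831 to 13054842 held 172, 124 and 10 reads (4.17 ± 0.03, SD, n = 2), and the one from 13054843 to 13054862 held 181, 133 and 14 reads (3.77 ± 0.01, SD, n = 2). A read can reach across both, so their reads are not added here.

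The fold changed over short distances along CALR. In the cluster from 13054650, which is the next one upstream, 66 reads over 40 in replicate 1 and 47 over 35 in replicate 2 gave log2 folds of 0.81 (0.22 to 1.41) and 0.94 (0.28 to 1.61). These exact intervals do not overlap those of the peak at 13054943 in the same replicate. Downstream of that peak the clusters from 13054992 had log2 folds of 2.77 and 2.57, and those nearest the 3′ end had 2.54 and 2.26. The high sites and the low sites were thus the same in both replicates where each listed a separate cluster. At 13054863 to 13054895 replicate 2 listed a separate cluster of 56 reads over 21 (1.93), which in replicate 1 was joined to the upstream peak in 1 cluster of 217 reads over 25 (3.21).

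PDIA3 (chromosome 15 from 44038590 to 44064804, plus strand) encodes ERp57, the disulfide isomerase that works with calreticulin and calnexin. Per length of gene interval, introns included, it had the fewest clusters, 0.229 per kb in replicate 1 and 0.076 in replicate 2. CALR had 1.19 per kb in each replicate. The interval is 26215 nt long for PDIA3 and 5891 nt for CALR, while their spliced transcripts have 3727 and 1903 nt. Clusters per length of transcript were not analysed here. Its 1 peak, from 44063641 to 44063709 and 1095 nt from the 3′ end, held 56 reads in replicate 1, 37 in replicate 2 and 7 in the input. The log2 folds were 3.09 and 2.92, a mean of 3.001 ± 0.12 (SD, n = 2), which ranked 2252 of the 2253 peaks. The cluster that replicate 2 listed there itself, 95 nt wide with 38 reads over 7, had a log2 fold of 2.95 and was not enriched. The PDIA3 peak thus lay at the threshold itself, with the replicates on either side of it.

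PDIA4 (chromosome 7 from 148700154 to 148725733, minus strand) encodes ERp72, an isomerase with several thioredoxin-like domains. All 4 of its peaks lay between 423 and 556 nt from the 3′ end. The peak from 148700594 to 148700609 held 96 reads in replicate 1, 139 in replicate 2 and 1 in the input. The log2 folds were 6.67 and 7.63 (mean 7.15 ± 0.68, SD, n = 2), the second highest of all 2253 peaks. With an input number of 1 the exact 95% intervals were wide, 4.16 to 11.99 in replicate 1 and 5.13 to 12.9 in replicate 2. The abutting peak from 148700577 to 148700593 held 75, 95 and 2 reads (5.70 ± 0.54, SD, n = 2), and that from 148700610 to 148700654 held 47, 74 and 3 reads (4.60 ± 0.76, SD, n = 2). The fourth peak, from 148700710 to 148700755, held 94, 75 and 3 reads, with log2 folds of 5.06 and 5.16 (5.11 ± 0.07, SD, n = 2).

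The very high fold in PDIA4 went with narrow bounds. The 3 abutting peaks carry the bounds of replicate 2, which split a stretch of 78 nt into pieces of 17, 16 and 45 nt. Replicate 1 listed 1 cluster over nearly the same stretch, 81 nt wide from 148700569 to 148700649, with 118 reads over 4 and a log2 fold of 4.97 (exact 95% interval 3.58 to 6.87). Within the same library the fold was thus 6.67 over 16 nt and 4.97 over 81 nt. With the value that each replicate listed for its own cluster, the mean log2 fold at 148700594 was 6.30 in place of 7.15. Replicate 1 also had an enriched cluster from 148700485 to 148700519, with 23 reads over 1 and a log2 fold of 4.61, which overlapped no cluster of replicate 2. Away from the 3′ end PDIA4 had 11 clusters in replicate 1 and 2 in replicate 2, and none of them was enriched.

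**Figure D2:**
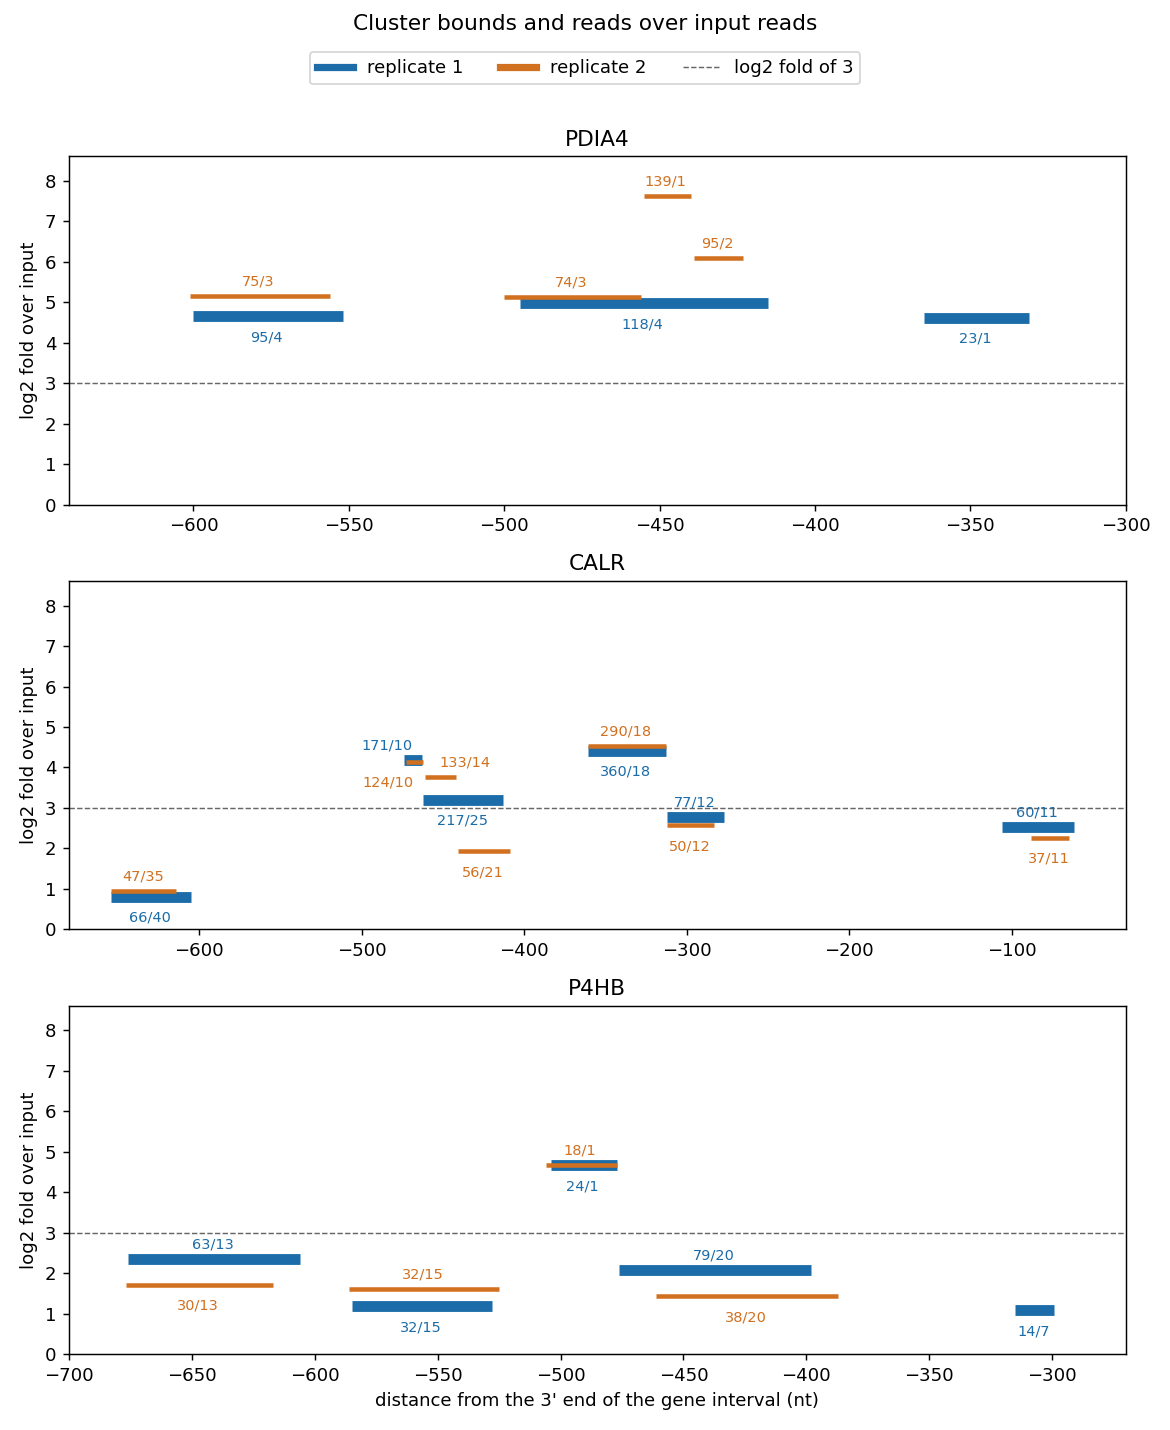
Bounds (x axis, nt from the 3′ end of the gene interval) and log2 fold over input (y axis) of clusters in PDIA4, CALR and P4HB, with thick blue bars for replicate 1, thin orange bars for replicate 2 and a dashed line at a log2 fold of 3. The numbers are reads over input reads. In PDIA4 the narrow orange bar with 139 reads over 1 stands above the wide blue bar with 118 over 4, and in P4HB the bars with 24 and 18 reads over 1 stand between lower bars with more reads.

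PDIA6 (chromosome 2 from 10923517 to 10952960, minus strand) encodes P5, an isomerase found in complex with BiP. Its peaks had modest folds that were close in the 2 replicates, over a shared input number of 2. The one from 10924059 to 10924118 held 23 reads in replicate 1, 17 in replicate 2 and 2 in the input (log2 fold 3.61 ± 0.01, SD, n = 2), and the one from 10924291 to 10924352 held 22, 15 and 2 reads (3.48 ± 0.09, SD, n = 2). They ended 542 and 774 nt from the 3′ end. Replicate 1 had 1 more enriched cluster, from 10937134 to 10937205 and 13617 nt from the 3′ end, with 15 reads over 1 (3.99). The overlapping cluster of replicate 2 had 5 reads over 1 and a log2 fold of 2.84, with a −log10 p of 1.06.

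P4HB (chromosome 17 from 79801034 to 79818544, minus strand) encodes PDI itself, which is also the beta subunit of prolyl 4-hydroxylase. Its 1 peak, from 79801511 to 79801538, held 24 reads in replicate 1, 18 in replicate 2 and 1 in the input. The log2 folds were 4.67 and 4.68, a mean of 4.68 ± 0.01 (SD, n = 2). The peak was 28 nt wide and stood between clusters with more reads and lower folds. The cluster that abuts it in replicate 1 had 79 reads over 20 (2.07), and on the other side 32 over 15 gave 1.18 and 63 over 13 gave 2.36. In replicate 2 the corresponding clusters had 38 over 20 (1.44), 32 over 15 (1.61) and 30 over 13 (1.72). The input number fell from 20 to 1 over adjacent stretches, so the high fold of P4HB rests on a low input as well as on 24 and 18 reads. Near the other end of the gene, 15938 nt from the 3′ end, replicate 1 had 15 reads over 2 with a log2 fold of 2.99, just under the threshold. The overlapping cluster of replicate 2 had 6 reads over 1, a log2 fold of 3.10 and a −log10 p of 1.65, so it was not enriched either.

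The genes were then put in order by the log2 fold of their highest peak. PDIA4 was first at 7.15, followed by P4HB (4.68), HYOU1 (4.47), CALR (4.47), PDIA6 (3.61), HSP90B1 (3.50) and PDIA3 (3.001). PDIA4 stood 2.47 above P4HB, and the values of its replicates did not overlap those of P4HB. With the cluster that each replicate listed itself, PDIA4 had 6.30 against 4.68 for P4HB, and in replicate 1 alone 4.97 against 4.67. The replicate ranges of P4HB and HYOU1 overlapped, as did those of HYOU1 and CALR, while P4HB lay above CALR in both replicates. CALR lay above PDIA6 in both replicates, and PDIA6 above HSP90B1 by 0.11. The spread between replicates leaves out counting error, which was wide at peaks with few input reads. In replicate 1 the exact 95% interval was 4.16 to 11.99 for PDIA4, 2.06 to 10.03 for P4HB, 3.73 to 5.18 for CALR, 1.59 to 6.74 for PDIA6 and 1.87 to 5.90 for HSP90B1. Each of these intervals overlapped that of the next gene named. Overlap alone cannot decide whether 2 genes differ, and differences between genes were not tested, so the order is only a description of the values. By RPM, the reads scaled to the library total, the order was another one. The CALR peak at 13054943 was first with 134 in replicate 1 and 145 in replicate 2, and the P4HB peak, second by fold, had 8.94 and 9.01.

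**Figure D3:**
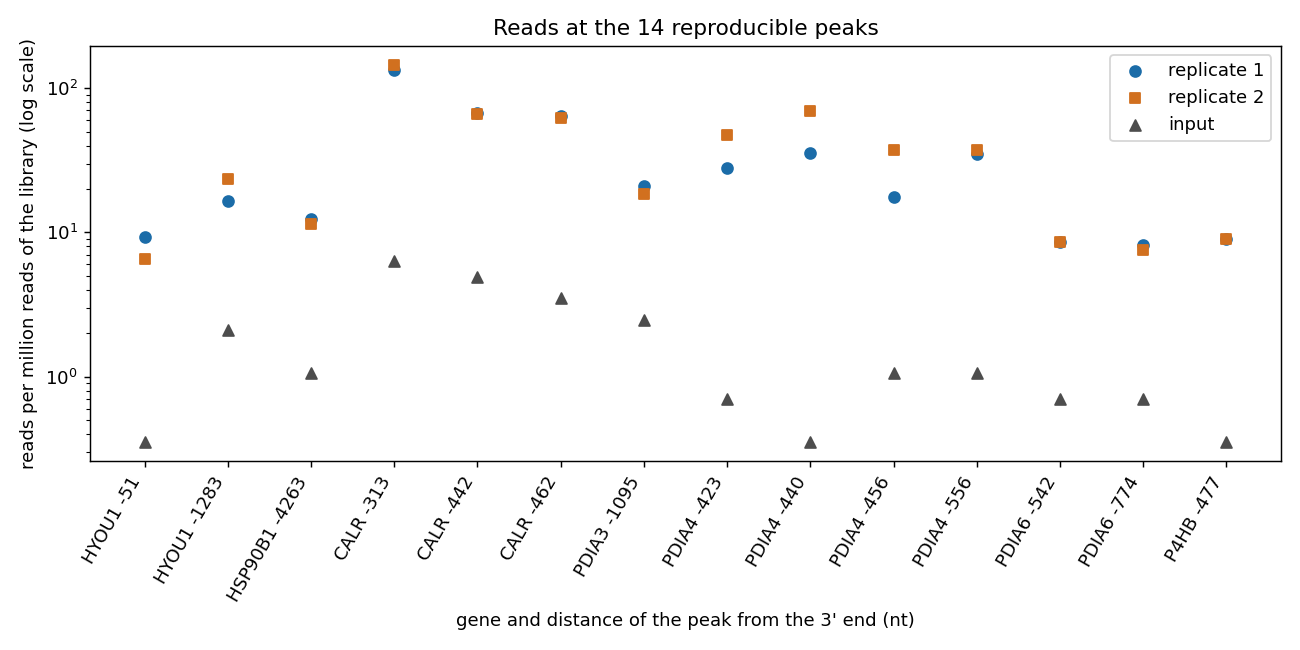
Reads scaled to the library total (RPM, y axis, log scale) at the 14 reproducible peaks, named on the x axis by gene and distance from the 3′ end of its interval in nt, with blue circles for replicate 1, orange squares for replicate 2 and grey triangles for the input. All immunoprecipitated values lie above the input of the same peak, the CALR peaks are the highest, and at 3 abutting PDIA4 peaks replicate 2 lies above replicate 1.

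Replicates were compared at each peak by a two-sided exact binomial test of the reads of replicate 1 among the reads of both, against the 57.3% that replicate 1 has of the library totals. The test compares these 2 libraries and not conditions. It was run over the 2247 reproducible peaks with whole reads, and p-values were adjusted over all of them by the Benjamini-Hochberg method. Of all peaks 1.82% were called, and of the 14 peaks 3 were, all in PDIA4 and all with more reads in replicate 2 than the totals give, a direction called at 0.846% of all peaks. The share of replicate 1 was 40.9% at 148700594 (exact test, adjusted p = 0.000123), 38.8% at 148700610 (exact test, adjusted p = 0.00695) and 44.1% at 148700577 (exact test, adjusted p = 0.0381). The last call was lost when the share of all peak reads was expected in place of the library share (exact test, adjusted p = 0.0820). These 3 peaks abut and share bounds taken from replicate 2, so they are not separate observations, and the part of the bounds in the difference was not tested. At the fourth PDIA4 peak, whose bounds also came from replicate 2, the share was 55.6% (exact test, adjusted p = 1.0). Over the 14 peaks the log2 fold was higher in replicate 1 at 7 and higher in replicate 2 at 7, and 12 reached 3 in both. The share of all peaks that reached 3 in both replicates was not analysed here.

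The next question was where along the genes the enriched clusters lay. Of the 14 reproducible peaks, 13 ended within 1300 nt of the 3′ end of the gene interval and 10 within 600 nt. Within 1300 nt lay 11 of 13 enriched clusters in replicate 1 and 12 of 13 in replicate 2, with median distances of 477 and 462 nt. Of the unenriched clusters 16 of 79 (20.3%) in replicate 1 and 16 of 48 (33.3%) in replicate 2 lay that close. Read number moved with position here too. Of the unenriched clusters with enough reads to pass, 11 of 16 in replicate 1 and 11 of 13 in replicate 2 also lay within 1300 nt. No test was made, since clusters of a gene share their source, and the limit of 1300 nt was chosen after the positions had been seen. The share of all reproducible peaks or of all enriched clusters that lay as close to a 3′ end was not analysed here. These positions therefore stand without a background.

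**Figure D4:**
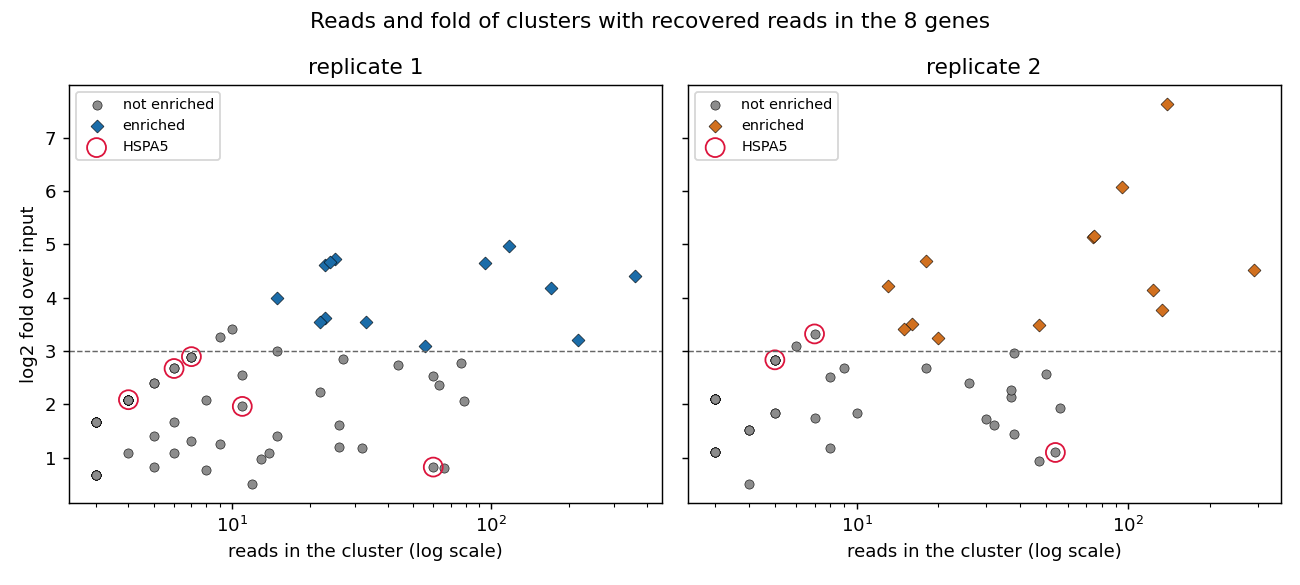
Reads per cluster (x axis, log scale) against log2 fold over input (y axis) for clusters of the 8 genes with recovered reads, 77 in replicate 1 and 56 in replicate 2, with coloured diamonds for enriched clusters, grey points for others, red rings for HSPA5 and a dashed line at a log2 fold of 3. The HSPA5 cluster with 60 reads in replicate 1 and 54 in replicate 2 lies well below the dashed line, while some clusters of other genes with similar reads reach a log2 fold of 3 or more.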

How the data were processed

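TIA1 eCLIP was deposited as 1 list of clusters for each of 2 replicates and 1 list of reproducible peaks. The submitters' processing notes name hg19, STAR 2.4.0i, SAMtools 1.4.1 and cutadapt (1.9.1 and 1.14), with no role or order, while the cluster caller is not given in the sources used here. Headers are missing from the lists. From the values, the deposited −log10 p-value compares an interval with the input and stops at 400, and the other column, also deposited, is a log2 ratio to the input that the authors scaled by library totals.

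The members, lists and tests were chosen with earlier results of these data known. All 8 genes and each of their reproducible peaks are named. Genes of a wider ER list and of other chaperone lists were not analysed here, because no hg19 annotation was used. Reads were recovered with Python 3.11.15 and SciPy 1.17.1. The commonest log2 fold was taken as 3 reads over 1, which gives the ratio of the totals. Each read pair had to return the deposited p-value within a relative tolerance of 2e-05, by Fisher's exact test below 5 observed or expected reads and by a Yates-corrected chi-square test otherwise. This gave unique reads for 88.7% and 93.4% of clusters. Clusters with a p-value of 1 were not recovered. The reproducible list was read as the mean fold of both replicates, so where its bounds came from 1 replicate the other's value was taken from the mean. Those reads were required to be whole within 1e-04. Recovery and the binomial test were tested on simulated data. Intervals are exact (Clopper-Pearson, 95%). Duplicates had been removed per the file names. Positions count from 1. Distances of clusters and peaks run from a region's downstream edge to the 3′ end of the gene interval, introns included.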

Additional observations from a re-analysis of the deposited data

How the results depend on the processing

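With a log2 fold of 1 at the same −log10 p, enriched clusters in the 8 genes numbered 20 in replicate 1 and 24 in replicate 2 in place of 13 and 13. At a log2 fold of 4 and a −log10 p of 5 they numbered 7 and 7, and reproducible peaks 7 in place of 14. The shares over all clusters and all peaks at these limits were not analysed here, so these counts stand without a background. Within 1300 nt of the 3′ end lay 17 and 21 enriched clusters at the laxer limit and 7 and 7 at the stricter one, settings added after seeing the data. On the opposite strand there were 0 enriched clusters in each replicate and 0 peaks. Without one replicate, the enriched clusters of the other numbered 13 to 13, the median log2 fold of the 14 peaks was 4.12 to 4.18 in place of 4.32, and 5 of 7 genes kept their place in the order by highest peak. With 0.5 added to all reads that median was 4.02, and 8 of the 14 peaks moved by more than their SD. Whole overlap and the adjusted p-value changed no count in the 8 genes. Over all clusters the adjusted p-value at the same log2 fold called 4100 in replicate 1 and 5239 in replicate 2, in place of 3184 and 3524. An input number of at least 2 left 9 and 10 enriched clusters, again without a share over all clusters. No paired analysis was possible because the 1 input has no replicate of its own and no file used here. Depth limits the folds of HYOU1, PDIA4 and P4HB most, where an input number of 1 occurs.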

Other observations

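The promoters of these genes were searched for the ER stress response element, the sequence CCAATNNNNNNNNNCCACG that the unfolded protein response is known to act through, on both strands and with no overlap of matches counted. RefSeq promoter windows of GRCh38.p14, 250 bases before to 50 after the start site, were found for 7 of the 8 genes. These 7 genes had 9 windows, and PDIA3 had none. The element was found in 4 of these 7 genes, while 27 of all 35116 promoter windows held it (0.0769%). The first count is of genes and the second of windows, which include those of these genes. Because these genes are known for induction by the response that acts through this element, a match in them is no independent finding. Whether the element is more frequent in them was not tested. Capitals mark the fixed letters, and the sequences are shown because this element is shared by genes that differ in TIA1 signal.
HSPA5: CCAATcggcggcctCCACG
HSP90B1, same strand: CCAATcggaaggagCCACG
HSP90B1, opposite strand: CGTGGtgcggcgcgATTGG
CALR, opposite strand: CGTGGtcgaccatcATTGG
PDIA6: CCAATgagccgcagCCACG
The matches began 66 bases before the start site in HSPA5, 194 and 89 in HSP90B1, 225 in CALR and 86 in PDIA6. In GRCh38 the HSPA5 match lies on chromosome 9 from 125241391 to 125241409, and the CALR match on chromosome 19 from 12938384 to 12938402. A match is a description of the letters and not a site in use. Of these 4 genes, HSPA5 had 0 reproducible TIA1 peaks, HSP90B1 1, PDIA6 2 and CALR 3.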
